A study of Mus musculus with 16 samples.

Results

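Oxidised low-density lipoprotein (oxLDL) was compared with vehicle in RAW264.7 cells, a macrophage line from a mouse leukaemia. The comparison rests on the 4 libraries titled oxLDL and the 4 titled control, chosen by title, which are 8 of the 16 libraries of the series. The oxLDL cells received 50 µg/ml oxLDL and the control cells culture medium as vehicle, both in high-glucose medium with serum. The other 8 libraries carry tirzepatide, a peptide that activates the incretin receptors, at a labelled 100 nmol/ml (100 µM as written, although nM may be meant, which could not be settled): 4 received oxLDL with tirzepatide (the combination) and 4 tirzepatide alone. They serve below as a separate comparison of cells with and without oxLDL. RAW264.7 is 1 transformed line and not a primary macrophage, no duration of treatment is given, and the labels do not state that numbered libraries came from separate cultures. The p-values then measure only the spread between these libraries, which may be technical.

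Macrophages take up modified lipoprotein through scavenger receptors, hydrolyse its cholesteryl esters in lysosomes and store the lipid again in cytoplasmic droplets, which is how foam cells form in atherosclerosis. Lipid and oxidised lipid are sensed by nuclear receptors of the PPAR and LXR families, and by NRF2, the factor that induces antioxidant, glutathione and heme-degrading enzymes. Macrophages also respond to such particles through pattern-recognition receptors that switch on cytokines, chemokines and interferon-dependent genes.

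Library totals were 16165865 to 17123823 expected counts with oxLDL and 16134421 to 16840886 in controls, and 12966 to 13154 genes had a count with oxLDL and 13131 to 13276 in controls. Of 21 macrophage lineage markers 19 passed the filter on low counts, and their summed level was 23800 to 25200 TPM (abundance corrected for transcript length and library depth) with oxLDL and 18800 to 20200 TPM in controls. Most of that sum is the lysozyme gene Lyz2, while the macrophage transcription factor Maf did not pass. Markers of lymphocytes, neutrophils, dendritic cells, fibroblasts, islets, liver, red cells and muscle each summed to at most 12.2 TPM in any of the 8 libraries. Pancreatic acinar transcripts were the exception, with 93 to 495 counts in the oxLDL libraries and 293 to 3028 in controls, where controls 1 and 2 held 3028 and 1694. Mitochondrially encoded genes took 7.69% to 9.32% of counts with oxLDL and 8.32% to 11.2% in controls, with control 1 highest. Counts of called members are therefore also given without controls 1 and 2 where they differ.

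Of 21965 genes in the table, 11319 passed the filter and were tested, and 514 of them, 4.54%, were called at an adjusted p under 0.05 by edgeR's quasi-likelihood test with Benjamini-Hochberg adjustment. With oxLDL 282 genes were higher (2.49%) and 232 lower (2.05%). Most changes were small. Of the genes called higher, 151 differed by under 1.2-fold, 98 by 1.2- to 1.5-fold, 19 by 1.5- to 2-fold and 14 by over 2-fold, and the median was 1.19-fold. Of the genes called lower, 62, 111, 26 and 33 were in the same classes, with a median of 1.29-fold, and 13 of them are pancreatic acinar genes. All 13 acinar calls were lost without controls 1 and 2, for example that of the chymotrypsinogen gene Ctrb1, which had 5.71, 3.29, 6.24 and 0.954 TPM with oxLDL, against 74.6, 47.9, 7.52 and 3.81 TPM in controls. Those 13 genes are not described further.

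The TPM values of the groups did not overlap for 216 of the 282 genes called higher and 149 of the 232 called lower, while over all tested genes 4.86% lay wholly above and 3.44% wholly below the controls. Together the genes called higher made up 10.1% ± 0.128 of all TPM with oxLDL and 7.95% ± 0.159 in controls, and those called lower 1.53% ± 0.0339 with oxLDL and 1.90% ± 0.0335 in controls (SD, n = 4 libraries each). The calls were made in these same libraries, so such gaps and shares follow from them and add no evidence. Much of the higher share is Spp1, Lyz2, Ftl1 and Odc1, with means of 20706, 20053, 9467 and 5332 TPM with oxLDL. Their control means were 16710, 15799, 6799 and 2869 TPM. Without controls 1 and 2 148 genes were called higher and 159 lower, 2.67% of those tested, and 130 and 121 of these were among the 282 and 232. With only the libraries numbered 3 and 4 on both sides, an alternative chosen after the data were seen, 282 of 282 and 227 of 232 kept their sign. Since those libraries are part of the comparison, this is no separate evidence. Of the 129 called genes named in the text, 96 were also called whichever 1 of the 8 libraries was left out, and the other 33 lost the call at least once.

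**Figure D1:**
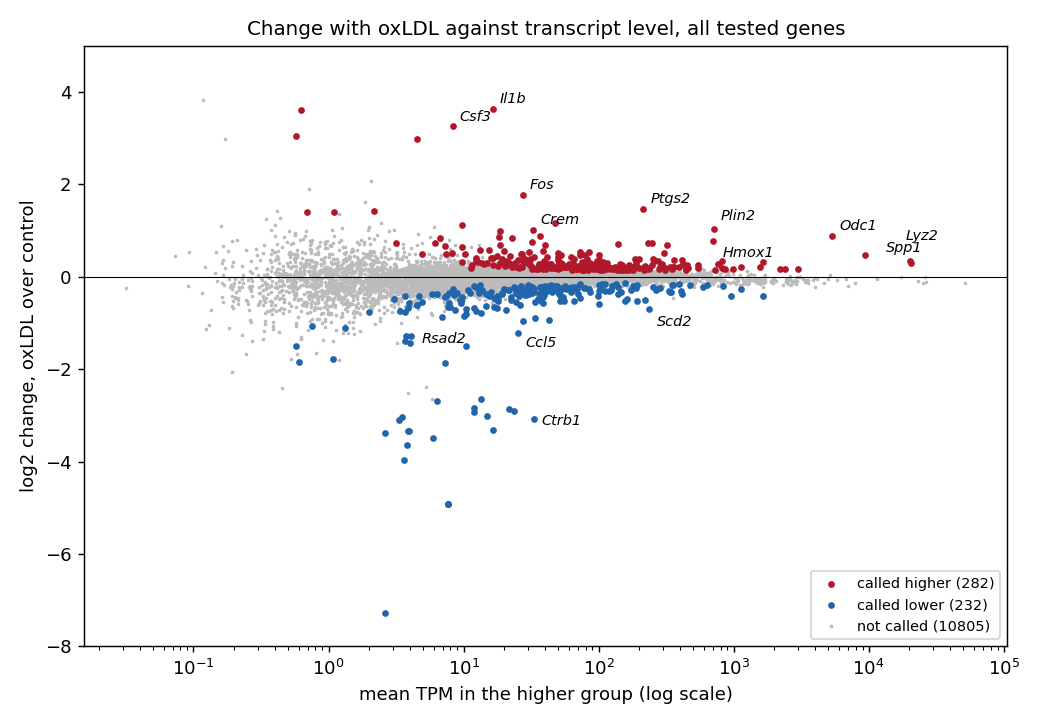
Each point is a tested gene, with the mean TPM of the group where it is higher on the x axis (log scale) and its log2 change, oxLDL over control, on the y axis. Red points were called higher (282), blue points lower (232). The lowest points are mostly pancreatic acinar genes such as Ctrb1, and most other called genes lie within 1 log2 unit of 0.

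A minority of the genes of lipid droplets and fatty acid oxidation rose with oxLDL, led by Hilpda, Plin2 and Cpt1a. Of 32 listed lipid droplet and PPAR target genes 22 were tested, and 6 rose and 0 fell, beside 2.49% and 2.05% of all genes. Their median log2 change was 0.09, against -0.002 over all tested genes. These shares of all genes, 4.54% together, are the background for each list count below. In bulk RNA a change in the share of cells and a change per cell cannot be told apart. Plin2, which encodes the protein that coats lipid droplets, stood at 712, 729.5, 708 and 694 TPM in the oxLDL libraries, against 363, 310.4, 330.5 and 361 TPM in controls. Every oxLDL library lay well above every control (log2 change 1.03, SE 0.076, adjusted p = 6.75e-09 by edgeR). Hilpda, a small droplet protein that inhibits the lipase ATGL, had 48.6, 51.7, 43.1 and 46.9 TPM with oxLDL and 17.4, 27.4, 21.6 and 17.8 TPM in controls. Its groups did not overlap either, and its log2 change of 1.17 (SE 0.17, edgeR adjusted p = 0.000161) was the largest of the list. Pnpla2, which encodes ATGL itself, rose to 108 ± 4.67 TPM, against 81.4 ± 5.67 TPM in controls (SD, n = 4 each).

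Entry of fatty acids into mitochondria was represented by a pair of called genes. Cpt1a, the rate-limiting carnitine transferase of the outer membrane, gave 41.1, 35.9, 37.7 and 40.4 TPM with oxLDL, against 27.5, 24.6, 24.4 and 27.4 TPM in controls, and no oxLDL library fell to the control range. The log2 change was 0.57 (SE 0.067, edgeR adjusted p = 8.78e-06). Slc25a20, the carnitine carrier of the inner membrane, rose by 0.49 on the log2 scale (SE 0.092), and Hadha, a subunit of the trifunctional beta-oxidation enzyme, by 0.17 (SE 0.042). Hadha was not called without controls 1 and 2 (edgeR adjusted p = 0.204), whereas the other 5 were. Fabp4, a fatty acid carrier and PPAR gamma target named after its values were seen, had 473 ± 4.26 TPM with oxLDL and 516 ± 28.8 TPM in controls and was not called (log2 change -0.13, edgeR adjusted p = 0.156).

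Among 16 scavenger and lipoprotein receptors only 9 passed the filter, and 2 rose and 1 fell. Msr1, the class A scavenger receptor that binds modified LDL, had 100.4, 97.3, 98.97 and 94.2 TPM with oxLDL, against 82.6, 69.6, 67.99 and 79.8 TPM in controls, which is a log2 change of 0.34 (SE 0.070, edgeR adjusted p = 0.0044). The groups did not overlap, and the call held without controls 1 and 2. Colec12, a scavenger receptor with a collectin domain, rose by 0.17 (SE 0.044), which was not called without those libraries (edgeR adjusted p = 0.176). Cd36, the main oxLDL receptor of most macrophages, summed to 3 counts over the 4 oxLDL libraries and 9 over the 4 controls, too few to test.

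Calls among cholesterol export and LXR target genes were mostly lower. Of 20 tested 2 rose and 6 fell, and with 9 positive and 11 negative log2 changes the median was -0.07. Abca1, the exporter that loads cholesterol onto apolipoprotein A-I, had 108, 105, 116 and 114 TPM with oxLDL and 151, 153, 156 and 169.9 TPM in controls. Abcg1, which exports cholesterol to HDL, had 153, 154, 166 and 159.7 TPM with oxLDL and 206, 219, 233 and 231 TPM in controls. In both genes every oxLDL library lay below every control. The log2 changes were -0.52 (SE 0.064, edgeR adjusted p = 1.3e-05) for Abca1 and -0.51 (SE 0.081, edgeR adjusted p = 0.000337) for Abcg1.

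Mylip, a ubiquitin ligase induced by LXR, averaged 25.7 ± 1.46 TPM with oxLDL and 35.8 ± 0.532 TPM in controls and fell as well. The desaturase gene Scd2 had 143, 138, 149 and 152 TPM with oxLDL, against 214, 224, 252 and 261 TPM in controls, again without overlap (log2 change -0.70, SE 0.087, edgeR adjusted p = 1.3e-05). Its relative Scd1 was at 2.66 to 6.87 TPM with oxLDL and 4.39 to 9.93 TPM in controls, so that its TPM values overlapped although its counts were called lower (-0.87, SE 0.17). The master regulators of fatty acid and sterol synthesis, Srebf1 and Srebf2, fell by small amounts (-0.33 and -0.25), near the threshold with edgeR adjusted p = 0.0346 and 0.0497. Of 25 tested genes of the cholesterol synthesis list 2 fell, Srebf2 among them, and 0 rose, with a median of -0.08. That is 8% called, beside 4.54% of all genes. The 6 calls of lower export and LXR genes held without controls 1 and 2, but that of Srebf1 held in only 1 of 8 fits with 1 library left out.

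The 2 genes of the export list that rose act in the cycle between free and stored cholesterol. Soat1, the enzyme that esterifies cholesterol for storage, had 158, 192, 174 and 179 TPM with oxLDL, against 131, 131, 139 and 156 TPM in controls (0.21, SE 0.045, edgeR adjusted p = 0.00658). Nceh1, a hydrolase of cholesteryl esters, averaged 25.1 ± 2.61 TPM with oxLDL and 19.4 ± 2.04 TPM in controls (0.36, SE 0.074). Neither gene's groups overlapped, and the call of Soat1 was lost without controls 1 and 2 (edgeR adjusted p = 0.132). Of 22 tested sphingolipid and phospholipid enzymes 3 rose and 0 fell, among them Sptlc1, a subunit of the first enzyme of sphingolipid synthesis (0.31, SE 0.066), and Sgpl1, the lyase that ends the pathway (0.22, SE 0.045). Of these 3, 2 were called without controls 1 and 2.

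**Figure D2:**
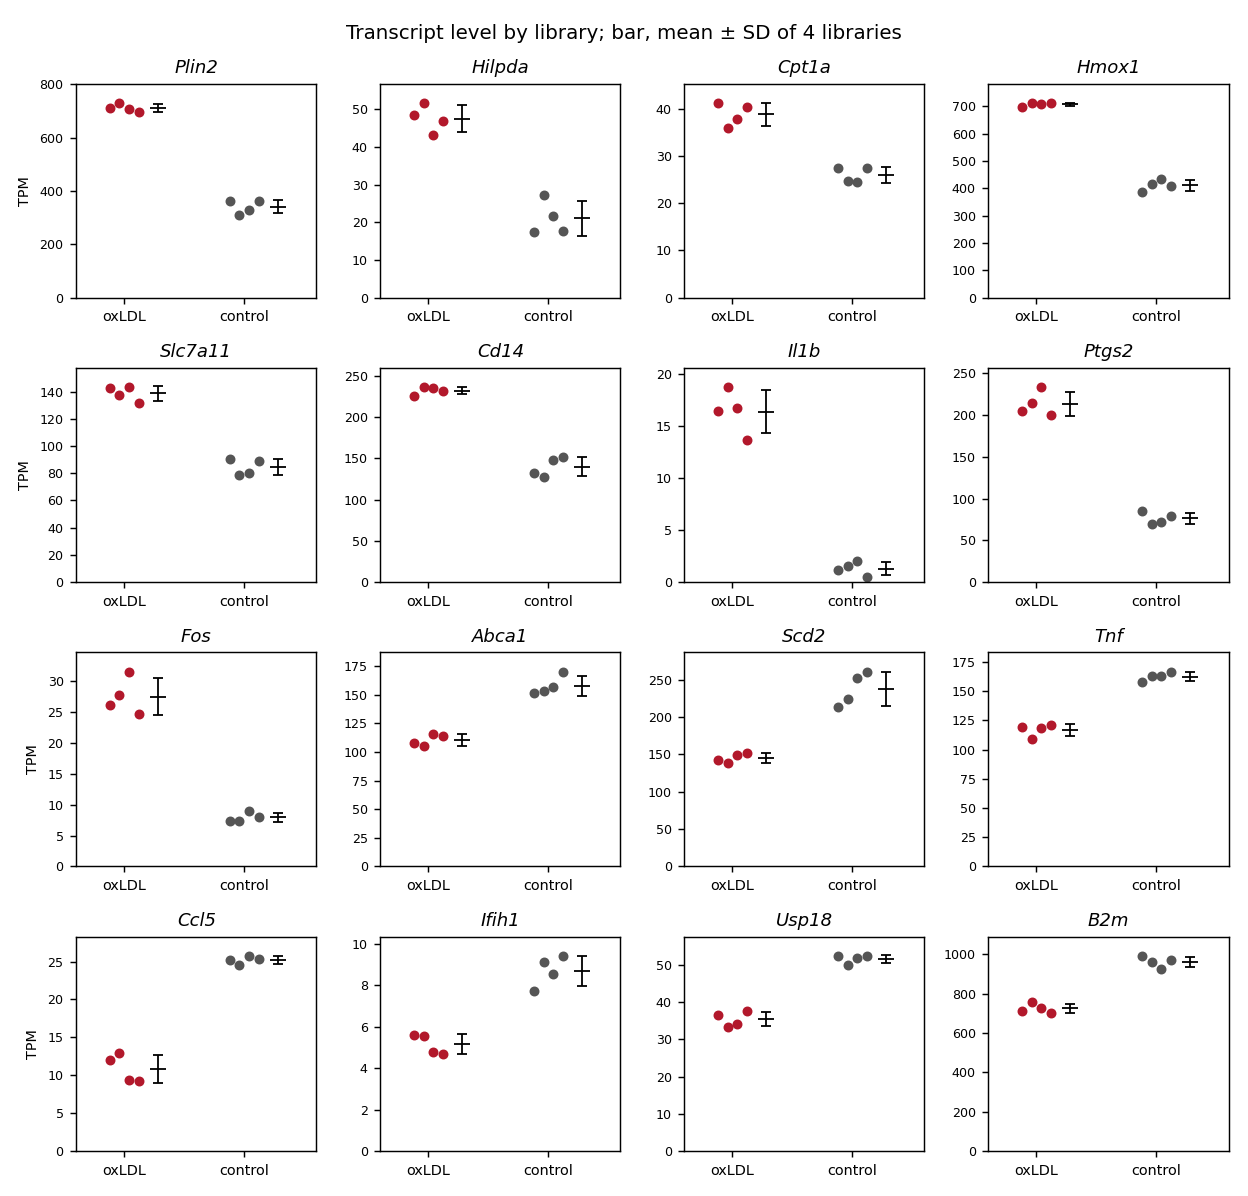
Each panel shows the TPM of 1 gene in the 4 oxLDL libraries (red) and the 4 controls (grey), with the mean and SD of each group as a bar at its right and every axis starting at 0. In all 16 panels the oxLDL and control libraries occupy separate ranges, and the widest separations by ratio are those of Il1b, Fos, Ptgs2 and Ccl5.

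NRF2 target genes gave the largest count of calls among the antioxidant and metabolic lists. Of 28 tested members 14 rose and 0 fell, 50% beside 4.54% of all genes, and the median log2 change was 0.22. The list's 30 genes summed to 18047 to 19048 TPM with oxLDL and 13843 to 15396 TPM in controls, most of it the ferritin light chain gene Ftl1. Hmox1, the enzyme that breaks down heme, had 699.7, 712, 707 and 712 TPM with oxLDL, against 388, 415, 434 and 407 TPM in controls. The oxLDL libraries lay close together and far above the controls (log2 change 0.78, SE 0.096, edgeR adjusted p = 1.3e-05). Slc7a11, the cystine importer that feeds glutathione synthesis, had 143, 138, 143 and 131 TPM with oxLDL and 90.8, 79.01, 80.5 and 89.2 TPM in controls (0.70, SE 0.072, edgeR adjusted p = 1.78e-06). Its partner chain Slc3a2 rose by 0.25 (SE 0.049), a call lost without controls 1 and 2 (edgeR adjusted p = 0.0547). Slc3a2 was the only call among 28 tested ATF4 and unfolded protein response genes, 3.57% beside 4.54% of all genes.

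The pentose phosphate enzymes that supply NADPH rose in both of their oxidative steps that the list held. G6pdx, the first enzyme, had 447, 419, 400.1 and 406 TPM with oxLDL, against 319, 307, 323 and 335 TPM in controls, and Pgd, the third, had 202, 202, 194 and 201 TPM with oxLDL, against 149, 145, 157 and 162 TPM in controls. The changes were modest but the libraries separated fully (0.37, SE 0.045, edgeR adjusted p = 1.3e-05 for G6pdx, and 0.38, SE 0.045, edgeR adjusted p = 1.04e-05 for Pgd). Srxn1, which repairs oxidised peroxiredoxins, rose to 73.2 ± 3.22 TPM, against 50.5 ± 5.19 TPM in controls (0.53, SE 0.082). Txnrd1, thioredoxin reductase, rose by 0.33 (SE 0.051), Cat, catalase, by 0.35 (SE 0.051), and the glutathione synthesis subunits Gclm and Gclc by 0.29 and 0.26. Without controls 1 and 2, 12 members were called higher, not all of them among those called in the main fit. With any 1 of the 8 libraries left out the count was 10 to 14.

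The promoters of Srxn1 and G6pdx are shown because these called genes carry a match to the core of the antioxidant response element, the letters TGACNNNGC, which NRF2 is known to bind. Each is the RefSeq window on the GRCm38.p6 build from 250 bases before to 50 after the gene's start, 5′ to 3′ on the gene's strand, with matches in capitals. Srxn1 lies at chr2:152105274-152105573 on the plus strand and G6pdx at chrX:74428831-74429130 on the minus strand.
Srxn1: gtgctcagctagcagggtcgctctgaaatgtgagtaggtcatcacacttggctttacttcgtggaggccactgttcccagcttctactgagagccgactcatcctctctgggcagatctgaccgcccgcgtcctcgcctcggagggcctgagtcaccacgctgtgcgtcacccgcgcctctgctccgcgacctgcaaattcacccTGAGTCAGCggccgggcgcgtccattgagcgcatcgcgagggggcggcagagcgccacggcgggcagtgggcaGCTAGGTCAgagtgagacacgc
G6pdx: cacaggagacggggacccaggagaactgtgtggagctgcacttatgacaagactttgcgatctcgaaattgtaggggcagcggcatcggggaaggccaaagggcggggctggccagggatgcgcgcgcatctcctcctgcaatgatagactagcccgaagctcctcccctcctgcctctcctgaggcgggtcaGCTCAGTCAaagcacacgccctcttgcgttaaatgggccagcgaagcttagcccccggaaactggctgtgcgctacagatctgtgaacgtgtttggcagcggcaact
In G6pdx the match GCTCAGTCA starts at position -57 from the start and reads on the opposite strand. In Srxn1 the match GCTAGGTCA starts at position 29, also on the opposite strand, and TGAGTCAGC at -45 matches TGANTCAGC, a motif added after the data were seen that overlaps TGACNNNGC where its N is C. Counting both strands, TGACNNNGC occurred in 25.8% of 31 windows of 23 matched NRF2 list genes, in 19.0% of 284 windows of genes called higher, in 11.2% of 241 windows of genes called lower, in 14.3% of 11341 windows of tested genes and in 12.4% of all 32851 windows. For TGANTCAGC the shares were 12.9%, 2.11%, 1.66%, 0.97% and 1.19%. In the 14 windows of called NRF2 list members TGACNNNGC had a share of 35.7% and TGANTCAGC of 7.14%, with Srxn1 the only match of the latter. A gene can have several windows, and a match does not show binding.

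Heme and iron genes overlapped with that list and added transporters. Of 21 tested members 7 rose and 1 fell, or 4 rose without controls 1 and 2. Slc48a1, which moves heme out of the lysosome, had 184, 191, 176 and 192 TPM with oxLDL, against 130.1, 140, 148 and 146 TPM in controls, with no overlap (0.40, SE 0.061, edgeR adjusted p = 0.000205). Slc40a1, ferroportin, the only known iron exporter, rose to 7.27 ± 0.525 TPM, against 4.56 ± 0.404 TPM in controls (0.67, SE 0.15). Tfrc, the transferrin receptor that brings iron in, fell by 0.20 on the log2 scale (SE 0.056, edgeR adjusted p = 0.0319), and was not called without controls 1 and 2 (edgeR adjusted p = 0.115). Ftl1 had 9014 to 9748 TPM with oxLDL and 6231 to 7175 TPM in controls (0.47, SE 0.082). Its heavy chain partner Fth1, named after its values were seen, was listed at 7.88 to 11.3 TPM with oxLDL and 5.39 to 11.7 TPM in controls. Both ferritin genes have near-identical processed copies among which reads can be split, so their levels are uncertain.

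**Figure D3:**
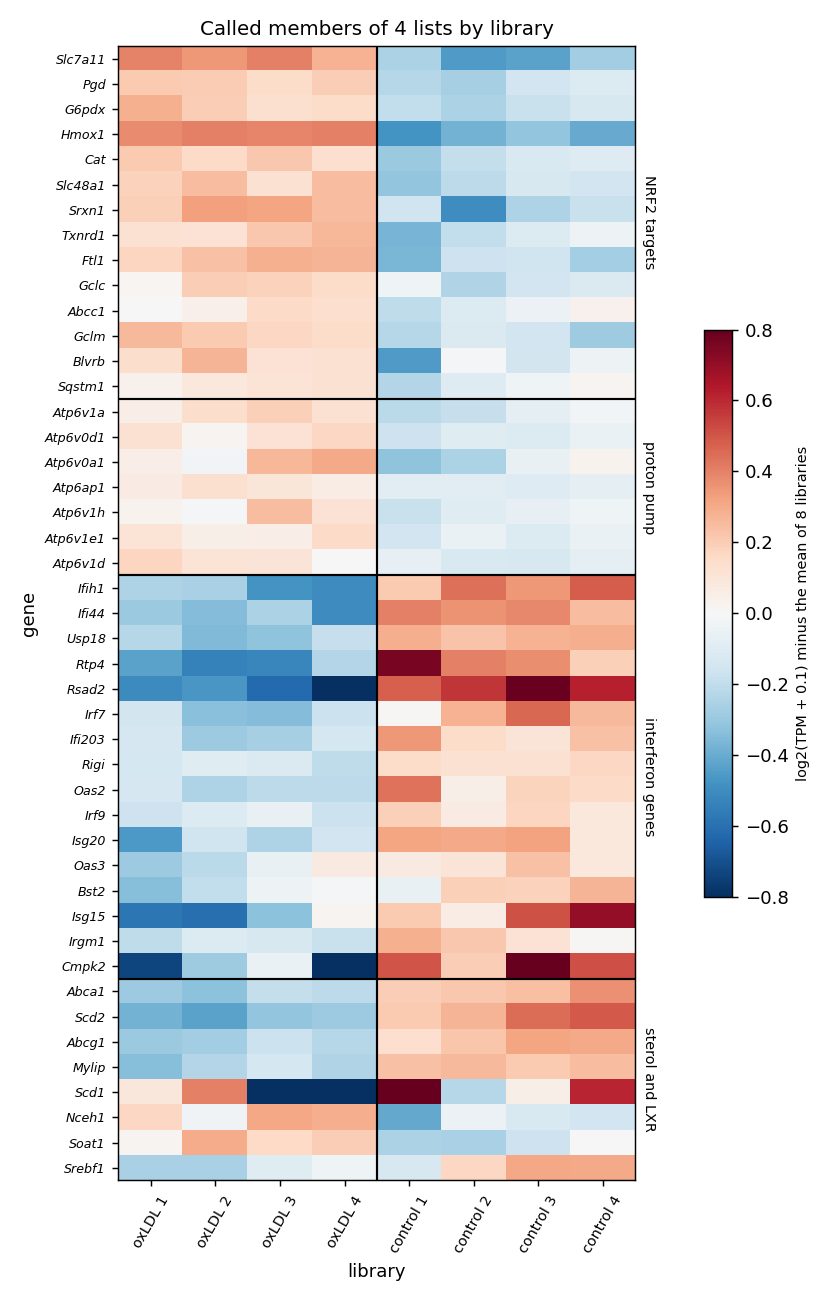
The heat map shows the called members of 4 lists (rows) in the 4 oxLDL and 4 control libraries (columns), as log2(TPM + 0.1) minus the mean of the 8 libraries. NRF2 targets and proton pump subunits are redder in the oxLDL columns, interferon genes and most export and LXR genes bluer, and proton pump subunits are pale throughout, while Scd1 changes colour within both groups.

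Some lysosomal genes rose by small amounts. Of 44 tested lysosomal hydrolases and membrane proteins 8 rose and 0 fell, 36 had a positive log2 change, and the median was 0.11. Gla, alpha-galactosidase A, which degrades globotriaosylceramide, had 31.2, 32.2, 29.8 and 28.1 TPM with oxLDL, against 17.95, 18.98, 17.8 and 20.6 TPM in controls, and was the largest change of the list (0.54, SE 0.084, edgeR adjusted p = 0.000213). The test uses counts whereas TPM also divides by transcript length, so the ratio of TPM means need not match the log2 change. Scarb2, the receptor that sorts glucocerebrosidase to lysosomes, had 50.8, 52.1, 55.5 and 51.5 TPM with oxLDL and 41.6, 40.5, 42.03 and 44.6 TPM in controls (0.31, SE 0.053, edgeR adjusted p = 0.000641). The membrane proteins Lamp2 and Cd63 rose by 0.22 and 0.23, and neither gene's groups overlapped. Without controls 1 and 2 only 4 of the list were called, and 5 without control 2 or without oxLDL 4.

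Of 18 subunits of the vacuolar proton pump, which acidifies lysosomes, 7 rose and 0 fell and 16 had a positive log2 change, with a median of 0.13. Atp6v1a, the catalytic subunit, had 238, 253, 262 and 249 TPM with oxLDL, against 198, 202, 218 and 226 TPM in controls (0.25, SE 0.043, edgeR adjusted p = 0.000526), with a gap between the groups. The other 6 called subunits had log2 changes from 0.16 in Atp6ap1 (edgeR adjusted p = 0.0233) to 0.27 in Atp6v0a1 (edgeR adjusted p = 0.0176). The count was 2 without controls 1 and 2, without control 2 or without oxLDL 1, 3 without control 3 or control 4, 4 without oxLDL 2, 3 or 4, and 5 without control 1.

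The promoters of Gla and Atp6v1a are shown because both contain the palindrome TCACGTGA, an E-box of the type bound by TFEB, the factor that drives lysosomal genes. Gla lies at chrX:134600956-134601255 and Atp6v1a at chr16:44139210-44139509, both on the minus strand of GRCm38.p6, in RefSeq windows printed as above.
Gla: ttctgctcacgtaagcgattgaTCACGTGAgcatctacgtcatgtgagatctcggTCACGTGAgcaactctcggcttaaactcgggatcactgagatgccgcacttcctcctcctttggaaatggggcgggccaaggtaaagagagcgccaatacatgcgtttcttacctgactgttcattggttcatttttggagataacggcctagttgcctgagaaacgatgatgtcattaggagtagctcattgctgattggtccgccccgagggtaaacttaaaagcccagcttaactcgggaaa
Atp6v1a: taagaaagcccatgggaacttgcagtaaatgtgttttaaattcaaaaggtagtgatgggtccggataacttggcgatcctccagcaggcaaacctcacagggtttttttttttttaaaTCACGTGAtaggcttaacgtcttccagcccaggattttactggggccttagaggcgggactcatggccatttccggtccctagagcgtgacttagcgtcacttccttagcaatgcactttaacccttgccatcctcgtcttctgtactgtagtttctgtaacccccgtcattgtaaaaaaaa
Gla holds the palindrome at positions -228 and -195 and Atp6v1a at -132. It occurred in 18.8% of 16 windows of 12 matched proton pump genes, in 10.9% of 46 windows of 36 matched lysosomal genes, in 3.87% of the windows of genes called higher, in 0 of 241 windows of genes called lower and in 0.974% of all windows. Among promoters of all tested genes the share was 1.92%. For called members it was 33.3% of 6 proton pump windows and 12.5% of 8 lysosomal windows, where Gla was the only match.

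Among 15 tested cathepsins and cystatins 4 rose and 1 fell. Ctsl, a lysosomal cysteine protease, had 741, 784, 790.5 and 773 TPM with oxLDL, against 621, 586, 603 and 646 TPM in controls (0.28, SE 0.057, edgeR adjusted p = 0.0037), with no overlap. Ctsb and Ctsd, the main cysteine and aspartic proteases of macrophage lysosomes, rose by 0.18 and 0.17, and Ctsh, an aminopeptidase, was the one that fell (-0.21, SE 0.046, edgeR adjusted p = 0.00575). Cathepsins that rose numbered 2 without controls 1 and 2. Of 24 autophagy genes 4 rose and 0 fell, with Map1lc3b, whose product coats autophagosomes, at 0.20 (SE 0.047). Only 1 was called without controls 1 and 2, without control 2 or without oxLDL 1, and 2 without oxLDL 2 or oxLDL 4. Map1lc3b was called in all 8 fits with 1 library left out, but not without controls 1 and 2 (edgeR adjusted p = 0.0562).

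Genes that mark lipid-associated macrophages, a state described in fat tissue and plaques, rose in 9 of 18 tested cases and fell in 0, with a median of 0.17. Several of the 9 (Plin2, Nceh1, Ctsb, Ctsl, Ctsd and Cd63) are also members of the lists above. Spp1, osteopontin, had 20937, 21064, 20972 and 19852 TPM with oxLDL, against 18028, 16561, 15576 and 16675 TPM in controls, one of the most abundant messages of these cells (0.30, SE 0.063, edgeR adjusted p = 0.00448). Gpnmb, a lysosomal glycoprotein, had 294 ± 15.6 TPM with oxLDL and 236 ± 28.3 TPM in controls (0.28, SE 0.067). Trem2, the lipid receptor that defines the state, was not called (0.15, SE 0.068, edgeR adjusted p = 0.229). Without controls 1 and 2, 8 were called, not all of them among the 9. Gpnmb and Ctsd were not called there (edgeR adjusted p = 0.138 and 0.0568).

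Several receptors that sense microbial and damage signals were higher. Cd14, the co-receptor that hands lipopolysaccharide to TLR4, had 226, 236, 235 and 231 TPM with oxLDL, against 133, 128, 147 and 152 TPM in controls, with no overlap (log2 change 0.73, SE 0.11, edgeR adjusted p = 0.000138). Among 21 Toll-like receptors and adaptors Cd14, Tlr13 and Tlr7 rose and 0 fell. Tlr13, a sensor of bacterial ribosomal RNA, had 62.4 ± 3.85 TPM with oxLDL and 45.9 ± 2.96 TPM in controls (0.43, SE 0.073). Tlr7, an endosomal RNA sensor, had 16.9, 25.9, 16.04 and 18.4 TPM with oxLDL and 14.7, 13.9, 16.7 and 14.998 TPM in controls, overlapped between groups, and lost its call without controls 1 and 2 (edgeR adjusted p = 0.12).

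The C-type lectins Clec4e (Mincle, a receptor for glycolipids) and Clec4d, its partner chain, rose together. Clec4e had 35.2, 33.6, 34.1 and 44.3 TPM with oxLDL, against 18.1, 16.2, 21.4 and 19.001 TPM in controls (0.87, SE 0.11, edgeR adjusted p = 1.52e-05). Clec4d had 326, 339, 317 and 305 TPM with oxLDL, against 214, 197, 197 and 192 TPM in controls (0.69, SE 0.091, edgeR adjusted p = 3.27e-05). In both the groups were apart. With C5ar1, the receptor for the complement fragment C5a, they are the 3 called higher of 16 tested lectin, Fc and complement genes. C5ar1 had 15.7, 17.1, 15.3 and 18.1 TPM with oxLDL and 9.897, 15.8, 9.14 and 16.9 TPM in controls (0.42, SE 0.11). Its groups overlapped, it was called in 2 of 8 fits with 1 library left out, and it was not called without controls 1 and 2 (edgeR adjusted p = 0.153). C3, the central complement protein, was the 1 called lower, at 27.5 ± 0.787 TPM with oxLDL and 36.9 ± 5.02 TPM in controls (-0.35, SE 0.071). Cd300a, an inhibitory receptor for phosphatidylserine and phosphatidylethanolamine, had 32.01, 30.7, 31.7 and 34.5 TPM with oxLDL and 19.7, 18.5, 17.4 and 20.2 TPM in controls (0.76, SE 0.088, edgeR adjusted p = 7.61e-06). Lyz2 had 19390.1 to 20672 TPM with oxLDL and 15150.4 to 16458 TPM in controls (0.34, SE 0.047), and Lyz1 had 222 to 262 TPM with oxLDL and 135 to 162 TPM in controls (0.73, SE 0.072). These lysozyme genes are close copies that can share reads, so their separate changes are uncertain.

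Inflammatory mediators split in direction. Of 18 tested IL-1 family and inflammasome genes 2 rose and 0 fell. Il1b, interleukin-1 beta, had 16.4, 18.7, 16.8 and 13.7 TPM with oxLDL, against 1.15, 1.57, 2.00 and 0.457 TPM in controls, where control 4 was lowest. The gap between the groups was wide, and the log2 change of 3.64 (SE 0.41, edgeR adjusted p = 7.61e-06) was the largest of the 282 genes called higher. Nlrp3, the sensor of the inflammasome that matures interleukin-1 beta, had 40.1, 38.3, 44.5 and 42.3 TPM with oxLDL and 25.6, 31.3, 30.5 and 32.6 TPM in controls (0.42, SE 0.058, edgeR adjusted p = 6.33e-05). Il1rn, the receptor antagonist, was not called (0.08, SE 0.19, edgeR adjusted p = 0.876), and Il1a had 14 summed counts with oxLDL and 8 in controls, too few to test.

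Of 18 tested cytokines and growth factors 3 rose and 5 fell. Csf3, the granulocyte colony-stimulating factor, had 9.35, 8.51, 8.26 and 7.03 TPM with oxLDL, against 1.35, 0.587, 0.501 and 0.965 TPM in controls (3.26, SE 0.40, edgeR adjusted p = 1.3e-05). Areg, an EGF receptor ligand, had 18.7 ± 2.05 TPM with oxLDL and 11.6 ± 1.04 TPM in controls (0.68, SE 0.14), and Lif, an IL-6 family cytokine, 1.09 ± 0.0178 TPM with oxLDL and 0.395 ± 0.0654 TPM in controls. Tnf, tumour necrosis factor, went down, with 119, 109, 119 and 121 TPM with oxLDL and 158, 163, 163 and 167 TPM in controls (-0.48, SE 0.066, edgeR adjusted p = 4.8e-05). Il15, which sustains natural killer cells, Csf1, the macrophage growth factor, Ltb, a lymphotoxin chain, and Pdgfb, a growth factor for smooth muscle, also fell, by 0.64, 0.68, 0.43 and 0.77 on the log2 scale. Il6 was not called, at 2.36, 1.09, 3.07 and 3.77 TPM with oxLDL and 1.74, 1.54, 1.84 and 1.61 TPM in controls (0.66, SE 0.38, edgeR adjusted p = 0.383). Without controls 1 and 2 the counts of the list were 2 higher and 3 lower, and the count lower was 2 without control 2 and 3 without oxLDL 1 or oxLDL 4.

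More chemokines fell than rose. Of 12 tested chemokines and receptors 1 rose and 4 fell, and the median was -0.23. Cxcl2, a neutrophil attractant, had 270, 319, 321 and 299.9 TPM with oxLDL, against 212, 210.3, 200.2 and 213 TPM in controls (0.52, SE 0.088, edgeR adjusted p = 0.000544). Ccl5, which attracts T cells and monocytes, had 11.96, 12.9, 9.397 and 9.22 TPM with oxLDL, against 25.2, 24.5, 25.7 and 25.4 TPM in controls (-1.22, SE 0.18, edgeR adjusted p = 0.000165), and the highest oxLDL library was far below the lowest control. The inflammatory chemokines Ccl4 and Ccl3 fell by 0.59 (SE 0.11) and 0.37 (SE 0.081), with no overlap between groups, and Ccl9 by 0.25 (SE 0.073). The calls of Ccl3 and Ccl9 were lost without controls 1 and 2 (edgeR adjusted p = 0.0798 and 0.158).

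Ptgs2, the inducible cyclooxygenase that starts prostaglandin synthesis, had 205, 215, 233 and 200.3 TPM with oxLDL, against 84.8, 69.7, 71.9 and 78.6 TPM in controls. No library came near the other group, and the log2 change was 1.47 (SE 0.17, edgeR adjusted p = 7.61e-06). Of 15 tested prostaglandin and leukotriene enzymes 3 rose and 0 fell. The others were Pla2g4a, the phospholipase that releases arachidonic acid (0.28, SE 0.063), and Hpgds, the hematopoietic prostaglandin D synthase (0.40, SE 0.11, edgeR adjusted p = 0.0433). Hpgds was called in only 1 of 8 fits with 1 library left out, and also without controls 1 and 2 (edgeR adjusted p = 0.0312).

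NF-kB subunits and feedback genes moved in both directions. Of 26 tested 1 rose and 2 fell, 11.5% called beside 4.54% of all genes. The median log2 change was 0.02, against -0.002 over all tested genes. Nfkbiz, an atypical inhibitor protein that co-activates secondary response genes, had 221 ± 9.18 TPM with oxLDL and 267 ± 10.3 TPM in controls (-0.28, SE 0.050). Ikbke, a kinase that activates interferon regulatory factors, had 18.6, 15.4, 18.9 and 18.5 TPM with oxLDL, against 26.9, 23.1, 29.1 and 24.9 TPM in controls, with no overlap (-0.60, SE 0.13, edgeR adjusted p = 0.00536). The count lower was 3 without controls 1 and 2.

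Early response genes were represented by Fos above all. Of 27 tested AP-1, EGR and other early response genes 3 rose and 2 fell, with a median of -0.02. Fos, a subunit of the AP-1 factor, had 26.1, 27.7, 31.5 and 24.6 TPM with oxLDL, against 7.43, 7.36, 9.004 and 7.997 TPM in controls (1.78, SE 0.24, edgeR adjusted p = 4.15e-05). Fosl1 and Klf6, another AP-1 subunit and a zinc finger factor, rose by 0.29 and 0.24, and the falls of Egr2 and Bhlhe40 were close to the threshold (edgeR adjusted p = 0.0473 and 0.0425), with at most 1 of them called when any 1 of the 8 libraries was left out. The list's counts were 2 higher and 1 lower without controls 1 and 2. Dusp5, a nuclear phosphatase of ERK, had 18.6, 16.6, 20.9 and 18.9 TPM with oxLDL and 8.55, 9.82, 10.4 and 8.57 TPM in controls (1.00, SE 0.18, edgeR adjusted p = 0.000932), while Dusp6, its cytoplasmic relative, fell to 50.9 ± 1.597 TPM, against 60.6 ± 1.104 TPM in controls. Crem, a cAMP-responsive factor that also encodes the repressor ICER, had 30.8, 31.4, 33.8 and 34.1 TPM with oxLDL and 12.03, 14.8, 14.4 and 11.2 TPM in controls (1.02, SE 0.17, edgeR adjusted p = 0.000361).

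Interferon-stimulated genes formed the largest group of genes called lower. Of 38 tested members 16 fell and 0 rose, 42.1% beside 2.05% of all genes called lower. All 38 had a negative log2 change, with a median of -0.32, and the most negative value was -1.68 in Ifit1, a low-level gene that was not called (SE 0.67, edgeR adjusted p = 0.171). The listed genes summed to 717 to 745 TPM with oxLDL and 861 to 897 TPM in controls. Ifih1, the cytosolic sensor of long double-stranded RNA, had 5.61, 5.58, 4.79 and 4.69 TPM with oxLDL, against 7.75, 9.13, 8.54 and 9.41 TPM in controls (-0.72, SE 0.089, edgeR adjusted p = 1.3e-05). Usp18, the protease that removes ISG15 and restrains interferon signalling, had 36.5, 33.4, 34.3 and 37.6 TPM with oxLDL and 52.4, 50.2, 51.8 and 52.4 TPM in controls (-0.52, SE 0.074, edgeR adjusted p = 8.61e-05). Every oxLDL library lay below every control for both genes.

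Ifi44, an interferon-induced protein, and Rtp4, an interferon-induced receptor transporter, also separated, with 13.2, 12.7, 13.5 and 11.4 TPM with oxLDL, against 21.4, 20.7, 21.1 and 19.2 TPM in controls, for Ifi44. Rtp4 had 18.3, 16.9, 17.2 and 20.96 TPM with oxLDL, against 41.8, 32.7, 31.9 and 28.2 TPM in controls, and Rsad2, viperin, 1.81, 1.88, 1.67 and 1.39 TPM with oxLDL, against 3.697, 3.95, 4.61 and 4.097 TPM in controls. Their log2 changes were -0.71 (SE 0.10), -0.89 (SE 0.14) and -1.28 (SE 0.21). Irf7, the factor that amplifies interferon production, fell by 0.53 (SE 0.089) and Isg15, the ubiquitin-like modifier, by 0.75 (SE 0.22, edgeR adjusted p = 0.0451). Ifit1 and Irf7 were named after their values were seen. Without controls 1 and 2, 11 were called lower, and 10 without oxLDL 1.

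The promoters of Ifih1 and Isg15 are shown because both hold the core of the interferon-stimulated response element, searched as GAAA, any 2 bases and GAAA again, which interferon-activated transcription factor complexes are known to bind. The RefSeq windows are at chr2:62646206-62646505 for Ifih1 and chr4:156200769-156201068 for Isg15, both on the minus strand of GRCm38.p6, with matches in capitals.
Ifih1: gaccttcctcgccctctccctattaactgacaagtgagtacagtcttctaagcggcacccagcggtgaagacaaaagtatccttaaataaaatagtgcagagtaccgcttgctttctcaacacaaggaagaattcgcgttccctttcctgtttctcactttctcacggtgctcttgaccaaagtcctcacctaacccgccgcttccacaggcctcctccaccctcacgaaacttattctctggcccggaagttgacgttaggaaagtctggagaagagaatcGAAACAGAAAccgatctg
Isg15: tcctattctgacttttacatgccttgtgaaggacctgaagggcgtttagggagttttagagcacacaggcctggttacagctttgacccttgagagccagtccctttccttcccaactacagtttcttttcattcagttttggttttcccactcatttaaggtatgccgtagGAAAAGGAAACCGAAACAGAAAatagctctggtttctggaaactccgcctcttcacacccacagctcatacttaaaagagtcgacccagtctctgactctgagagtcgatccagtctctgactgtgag
Ifih1 has a single match at position 33, after its start, while Isg15 has overlapping matches that begin at -78, -72 and -66. The motif occurred on either strand in 44.4% of 36 windows of 29 matched interferon-stimulated genes, in 8.3% of the windows of genes called lower, in 2.82% of those of genes called higher, in 2.95% of those of tested genes and in 3.44% of all windows. Of the 16 windows of called members 7 held it, a share of 43.8%.

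Class I antigen presentation genes, many of which respond to interferon, fell in 3 of 20 tested cases and rose in 0, with a median of -0.12. B2m, the light chain of class I molecules, had 712, 757, 728 and 703 TPM with oxLDL, against 989.8, 960.1, 925 and 968 TPM in controls (-0.41, SE 0.053, edgeR adjusted p = 2.05e-05). No oxLDL library reached the lowest control. The heavy chains H2-K1 and H2-D1 fell by 0.31 (SE 0.064) and 0.18 (SE 0.050), are similar in sequence so that reads may be shared, and were not called without controls 1 and 2 (edgeR adjusted p = 0.0744 and 0.167). Ube2l6, the conjugating enzyme for ISG15, had 26.4 ± 3.02 TPM with oxLDL and 38.7 ± 3.35 TPM in controls (-0.56, SE 0.086).

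**Figure D4:**
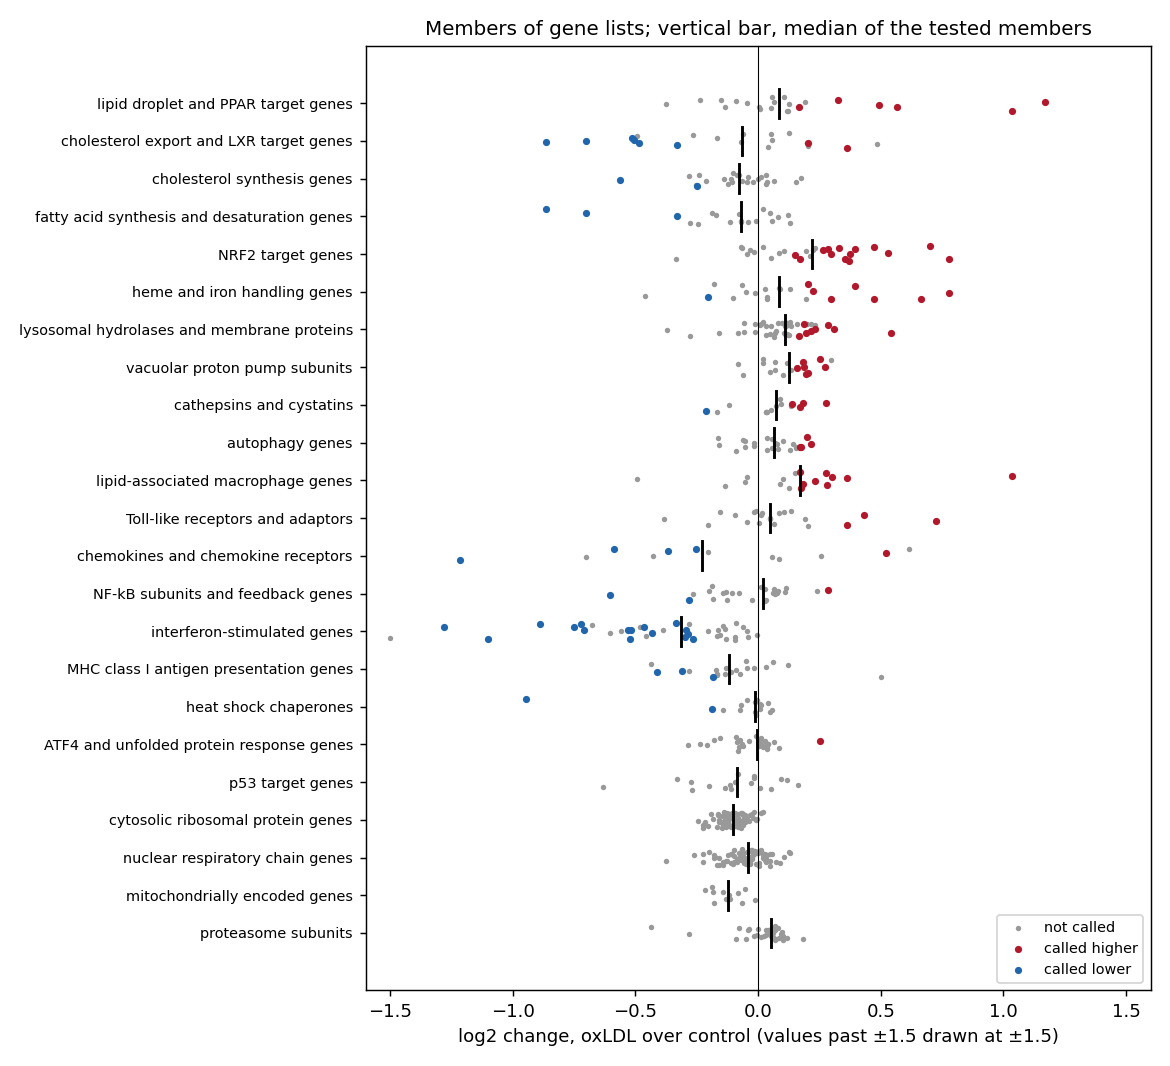
Each row is a gene list and each point a tested member, placed at its log2 change, oxLDL over control; red points were called higher and blue points lower, and the black bar is the median of the list. NRF2 targets (14 called of 28) and lipid-associated macrophage genes (9 of 18) lean to the right and interferon-stimulated genes (16 of 38) to the left, while ribosomal, respiratory chain, p53 and proteasome genes hold no called member.

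Genes that handle arginine and itaconate included some of the strongest changes. Of 12 tested 2 rose and 1 fell. Acod1, which makes itaconate from aconitate in activated macrophages, had 24.9, 23.2, 22.1 and 21.4 TPM with oxLDL, against 14.03, 11.2, 12.7 and 12.6 TPM in controls (0.85, SE 0.083, edgeR adjusted p = 1e-06). Odc1, the first enzyme of polyamine synthesis, had 5189, 5297, 5683 and 5158 TPM with oxLDL and 2654, 2872, 2978 and 2972 TPM in controls (0.89, SE 0.12, edgeR adjusted p = 4.61e-05). Nos2, the inducible nitric oxide synthase, had 49.5, 49.6, 59.3 and 55.3 TPM with oxLDL and 55.5, 71.5, 81.5 and 82.7 TPM in controls. Its oxLDL libraries reached into the range of control 1, but its counts were called lower (-0.45, SE 0.088, edgeR adjusted p = 0.0027), also without controls 1 and 2.

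Markers of classical (M1) activation did not move one way: of 14 tested, Il1b and Ptgs2 rose and Tnf, Ccl5 and Nos2 fell. Among alternative (M2) markers only 7 of 19 passed the filter and Egr2 was the 1 called, lower, with its call lost without controls 1 and 2, while Arg1 had 0 summed counts in both groups and Mrc1 0 with oxLDL and 2 in controls. Osteoclast genes, which RAW264.7 cells can switch on, fell in 3 of 13 cases. Car2, carbonic anhydrase 2, had 1229, 1271, 1232 and 1244 TPM with oxLDL, against 1659, 1610.5, 1643 and 1685 TPM in controls (-0.41, SE 0.070, edgeR adjusted p = 0.000614). Mmp9, a gelatinase, had 45.8 ± 3.59 TPM with oxLDL and 65.3 ± 12.8 TPM in controls (-0.52, SE 0.097), and Tnfrsf11a, the receptor RANK, fell by 0.22 (SE 0.056). The last was not called without controls 1 and 2 (edgeR adjusted p = 0.07). Of 13 tested metalloproteinases and inhibitors 3 rose and 3 fell, and without controls 1 and 2 the counts were 0 and 1. With 1 library left out they ran from 1 to 3 in each direction.

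Chaperone genes gave 2 calls of 16 tested, both lower. Cryab, a small heat shock protein, had 25.02, 20.96, 21.3 and 24.2 TPM with oxLDL, against 32.2, 48.4, 55.2 and 37.3 TPM in controls (-0.94, SE 0.15, edgeR adjusted p = 0.000269), with the highest oxLDL library below the lowest control. Hsp90aa1, an inducible HSP90, fell by 0.19 (SE 0.052) and was not called without controls 1 and 2 (edgeR adjusted p = 0.238). Among 16 metal binding and transport genes the metallothionein Mt1 fell (-0.32, SE 0.093, edgeR adjusted p = 0.0462) and the zinc importer Slc39a10 rose (0.51, SE 0.12), and both calls were lost without controls 1 and 2. Of 20 integrins and adhesion genes 5 rose by 0.14 to 0.21, among them Itgam and Itgal, the alpha chains of Mac-1 and LFA-1, and 1 was called without controls 1 and 2. With 1 library left out the count was 1 or 2, except without control 4, where it was 4.

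Other genes selected by the size or strength of their change belong to none of those lists. Higher with oxLDL were Slc23a2, a vitamin C importer, with 82.2 ± 3.46 TPM with oxLDL against 62.5 ± 3.38 TPM in controls (0.39, SE 0.044), Cnnm2, a magnesium transporter, with 18.4 ± 1.53 TPM with oxLDL against 10.3 ± 1.32 TPM in controls (0.87, SE 0.15), and the keratin gene Krt23, with 9.73 ± 1.95 TPM with oxLDL against 4.42 ± 0.569 TPM in controls (1.13, SE 0.21). Lower was Csn3, a milk casein gene, with 14.3, 16.3, 10.9 and 16.2 TPM with oxLDL and 28.7, 27.7, 26.6 and 27.3 TPM in controls (-0.95, SE 0.14, edgeR adjusted p = 0.000165). Pim2, a survival kinase, had 130.5, 128, 145 and 134 TPM with oxLDL and 179.9, 188, 202 and 196 TPM in controls (-0.52, SE 0.061, edgeR adjusted p = 8.78e-06). Gramd1b, which carries cholesterol from the plasma membrane to the endoplasmic reticulum, averaged 119.6 ± 7.95 TPM with oxLDL and 147 ± 8.78 TPM in controls (-0.32, SE 0.045). Sla, an adaptor that dampens receptor signalling, the actin nucleator Fmn1 and the GTPase Rab15 fell by 0.34, 0.43 and 0.38, in each case without overlap.

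Several large lists held no call. None of 81 cytosolic ribosomal protein genes, 78 mitochondrial ribosomal protein genes, 81 nuclear respiratory chain genes, 13 mitochondrially encoded genes, 37 proteasome subunits or 18 p53 targets passed by edgeR. At an unadjusted p under 0.05 the counts in that order were 36, 9, 7, 1, 3 and 5. Over all 11319 tested genes 2042 passed that level, or 18%. The 36 cytosolic ribosomal protein genes that passed it were all lower. DESeq2 called 4, 2, 0, 0, 2 and 0, beside 361 higher and 302 lower over all genes. Further, 79 of the 81 cytosolic ribosomal protein genes and all 13 mitochondrially encoded genes had a negative log2 change (medians -0.10 and -0.12). The share of counts in ribosomal protein genes was 5.45% to 5.66% with oxLDL and 5.59% to 6.12% in controls, and the mitochondrial shares are given above. Their part in the other results was not tested beyond a fit with the mitochondrial share as a covariate, in which 423 genes were called higher and 355 lower. Of 24 mitosis genes 1 rose, of 28 replication genes 2 and of 29 glycolysis and hypoxia genes 2, with 1 lower. The shares called were 4.17%, 7.14% and 10.3%, beside 4.54% of all genes. For the glycolysis list 0 genes were called higher without controls 1 and 2, without control 1 or without control 2. That count was 1 without any 1 oxLDL library. In the fit without controls 1 and 2, 0 mitosis genes, 1 replication gene and 1 mitochondrial ribosomal protein gene were called higher and 3 glycolysis genes lower.

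The same addition of oxLDL was also made in cells given tirzepatide, in 8 libraries that share none with the comparison above, although all 16 share an estimate of spread. Between the combination and tirzepatide alone 174 genes (1.54%) were called, 86 higher (0.76%) and 88 lower (0.777%). Of the 282 genes higher with oxLDL, 53 were called higher and 0 lower there, and 227 had a positive log2 change. Of the 232 genes lower with oxLDL, 45 were called lower and 0 higher, and 193 had a negative log2 change. The medians were 0.10 and -0.16, against 0.25 and -0.36 in the comparison that chose the genes. The choice there was by adjusted p, and how far it accounts for the gap in medians was not tested. Combination library 2 stood apart, with 14321 TPM summed over the NRF2 list against 16101 to 18958 TPM in the other combination libraries and 14977 to 15440 TPM with tirzepatide alone. Without it, 104 and 79 of the genes were called the same way, beside 1.88% and 2.02% of all genes. That library was set apart by a list that itself rose with oxLDL, so the larger counts without it are no separate evidence. Without combination 1, 3 or 4 instead, the total of 98 genes called the same way became 48, 58 and 42.

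**Figure D5:**
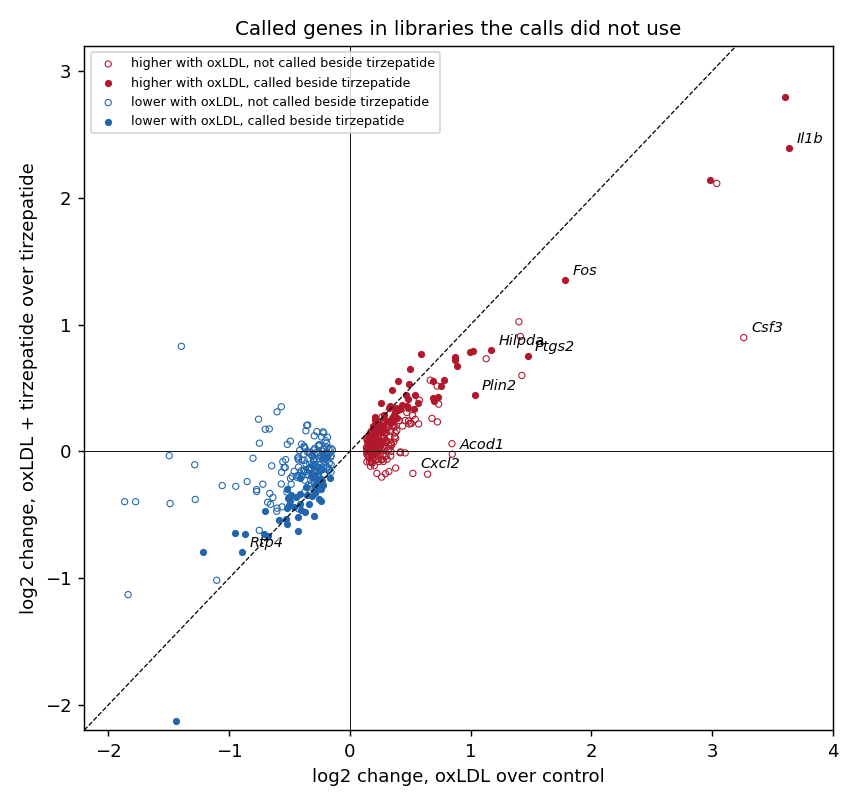
Each point is 1 of the genes called for oxLDL against control, with its log2 change there on the x axis and its log2 change between the combination and tirzepatide alone on the y axis; filled points were also called in the second comparison, the dashed line marks equal changes, and 21 genes lie outside the axes. Most points lie on the same side of 0 in both comparisons and nearer to 0 on the y axis, and Acod1, Cxcl2 and Csf3 lie well below the line.

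Gene by gene, Clec4e rose by 0.72 (SE 0.11, edgeR adjusted p = 0.00106) when oxLDL was added to tirzepatide, Il1b by 2.39 (SE 0.35, edgeR adjusted p = 0.00106) and Fos by 1.35 (SE 0.23, edgeR adjusted p = 0.00246). Plin2 rose by 0.44 (edgeR adjusted p = 0.00234), Hmox1 by 0.57 (0.00234), Cpt1a by 0.38 (0.00246), Odc1 by 0.68 (0.00304), Slc7a11 by 0.39 (0.00364) and Ptgs2 by 0.75 (0.0165), each adjusted p in parentheses from edgeR. Ifi44 fell by 0.65, Usp18 by 0.44, Irf7 by 0.53, Rtp4 by 0.79, Abca1 by 0.37, Scd2 by 0.47, Tnf by 0.34 and Mmp9 by 0.57, all called. Not called there were Csf3 (0.90, edgeR adjusted p = 0.173), Cd14 (0.23, 0.325), Ifih1 (-0.26, 0.159), Cryab (-0.28, 0.473) and Atp6v1a (0.16, 0.0628).

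For 8 of the 514 genes the response to oxLDL with tirzepatide differed from that without it by the interaction test. They were Acod1, Chrnb1, Cxcl2, Dixdc1, Nlrp3, Plin2, Sema3e and Stc1. Over all 11319 tested genes the test called the same 8, or 0.0707%. The interaction contrast uses the oxLDL and control libraries that chose the 514, and how far the differences follow from that choice was not tested. Acod1 had a log2 change of -0.021 beside tirzepatide and rose by 0.85 without it (edgeR adjusted p = 0.000704 for the difference), Cxcl2 had -0.17 beside it and 0.52 without it (edgeR adjusted p = 0.0221), and Nlrp3 -0.0038 beside it and 0.42 without it (edgeR adjusted p = 0.0356). Chrnb1, a nicotinic receptor subunit, had 0.18 beside tirzepatide and -0.67 without it (edgeR adjusted p = 0.0267), and Dixdc1, a regulator of Wnt signalling, -0.081 beside it and -0.56 without it (edgeR adjusted p = 0.0347). Plin2 rose in both, by 0.44 beside tirzepatide and 1.03 without it (edgeR adjusted p = 0.0221 for the difference). Sema3e, a secreted guidance cue, had -0.17 beside tirzepatide and 0.22 without it (edgeR adjusted p = 0.0221), and Stc1, a secreted glycoprotein, 0.16 beside it and -0.36 without it (edgeR adjusted p = 0.0221). The calls of Chrnb1, Dixdc1, Nlrp3 and Stc1 were lost without controls 1 and 2, where 5 genes were called, 4 of them among the 8. Without combination 2 those of Dixdc1 and Nlrp3 were lost and 8 genes were called, 6 of them among the 8. The number was 1 without control 2, oxLDL 2, oxLDL 3 or tirzepatide 1, 4 without oxLDL 1, 3 without tirzepatide 3, 5 without tirzepatide 2 or combination 1, 13 without control 4 and 14 without control 1.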

How the data were processed

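RNA of RAW264.7 cells was extracted with Trizol, enriched for mRNA and sequenced, per the labels' protocols. The authors' deposited table holds, per gene and library, an expected count estimated with RSEM and not scaled between libraries, and a TPM value scaled by the authors for transcript length and depth. Tools in the submitters' processing notes are RSEM (no version), Bowtie2 2.2.8, StringTie 1.3.1 and fastp 0.18.0, and the build is given there as mm39 and as GRCm39. Annotation release and strand setting are not given in the sources used here, so overlapping and antisense genes cannot be told apart.

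The rounded counts were fitted with edgeR 4.0.16 (R 4.3.3) after filterByExpr at a minimum count of 10 and TMM normalization, using glmQLFit and glmQLFTest contrasts in 1 fit of 16 libraries with a mean per group (12 residual degrees of freedom, biological coefficient of variation 0.0633). Benjamini-Hochberg adjustment was over 11319 genes per contrast, and an adjusted p under 0.05 was called, with no fold threshold. Log2 changes are oxLDL over control, or combination over tirzepatide, from counts. 2042 genes passed an unadjusted p under 0.05. On simulated data of the same 11319 genes, changes of 1.2-, 1.5- and 2-fold for oxLDL against control were set in 67, 67 and 66 genes. Of these 41.8%, 74.6% and 84.8% were recovered, with 5.63% false among calls. The simulation drew genes independently, without differences between libraries shared by many genes, so these rates may not hold for the real libraries. Replicate pairs differed beyond sampling noise, with a chi-square per degree of freedom (genes summing to 20 counts or more) of 2.74 to 5.93 with oxLDL and 4.23 to 17.7 in controls, and no library was counted as a copy of another.

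The members of the lists, the lists and the rule for named genes were chosen with earlier results of these data known, so no list is tested: its calls and median stand beside those of all genes. The rule took up to 15 called genes each way by size (5 TPM or more on average where higher, no overlap, called without controls 1 and 2), up to 15 each way by p, up to 5 called members of each list, fixed genes of inflammation and lipid handling, and 5 called genes with the smallest interaction p. Not every gene under it is printed, and some results are not reported here. Cmpk2, Csf1, Ctrb1, Fabp4, Fth1, Gclc, Gclm, Hadha, Ifit1, Irf7, Lamp2, Ltb, Pdgfb, Soat1, Srxn1, Tfrc, Txnrd1 and Il11, Smox, Cd93, Eml1, Bmal1 and Dbp were named after their values were seen. Promoter windows are RefSeq's on GRCm38.p6, matched by symbol for 8879 of the tested genes.

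Alternatives were only the oxLDL and control libraries in the fit, the replicate number as a block, DESeq2 size factors, quantile normalization with limma 3.58.1 (prior count 2), no filter, at least 5 TPM in at least 4 libraries, DESeq2 1.42.0, each library left out, controls 1 and 2 left out, acinar markers left out and the mitochondrial share as a covariate. Chosen after the data were seen were only libraries 3 and 4, and leaving out combination 2 with controls 1 and 2. Leaving out controls 1 and 2 alone is also part of the rule for named genes, which was set with earlier results of these data known. Deviations from group means correlated weakly between same-numbered oxLDL and control libraries (Pearson r across genes from -0.0514 to 0.164), and numbers were not taken as pairs. Over all groups, however, the mitochondrial share was 8.67% to 11.2% in libraries 1 and 2 and 7.69% to 8.39% in libraries 3 and 4. Whether the numbers mark a batch was not tested.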

Additional observations from a re-analysis of the deposited data

Results flagged for a closer look

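Over the genes named in the text, 9 of 270 combinations of gene and group held 1 library whose distance from its nearest neighbour took up most of the range of its 4 libraries. Chance marks about 1 in 20 such groups. Among oxLDL libraries, library 4 was apart in 3 genes. It had 44.3 TPM of Clec4e against 33.6 to 35.2 TPM in the other oxLDL libraries, 222 TPM of Lyz1 against 256 to 262 TPM, and 19852 TPM of Spp1 against 20937 to 21064 TPM. OxLDL 2 had 15.4 TPM of Ikbke, where the others held 18.5 to 18.9 TPM, and oxLDL 3 had 118 TPM of Rab15, where the others held 108 to 109.7 TPM. In each of these genes the far library stayed on the same side of all controls as the other oxLDL libraries.

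Among controls, library 2 was high in a pair of genes, with 5.94 TPM of Csf1 against 2.98 to 3.27 TPM in the other controls and 14.3 TPM of Hpgds against 11.2 to 11.5 TPM. Control 1 was lowest for Dusp6, at 59.0 TPM where the others held 61.0 to 61.4 TPM. Control 3 was highest for Bhlhe40, at 29.9 TPM where the others held 22.7 to 23.3 TPM. Csf1 was not called without control 2 and Bhlhe40 not without control 3, as given by edgeR adjusted p = 0.0916 and 0.191.

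For 8 genes the oxLDL response with tirzepatide differed from that without it in the interaction test, and the values below are the first log2 change minus the second. The difference was negative for 5 genes, at -0.87 for Acod1, -0.70 for Cxcl2, -0.59 for Plin2, -0.42 for Nlrp3 and -0.40 for Sema3e. It was positive for the others, at 0.84 for Chrnb1, 0.53 for Stc1 and 0.47 for Dixdc1. The adjusted p-values by edgeR ran from 0.000704 for Acod1 to 0.0356 for Nlrp3.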

How the results depend on the processing

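Against 282 genes higher and 232 lower with oxLDL, the counts were 148 and 159 without controls 1 and 2, 423 and 355 once the share of mitochondrial counts was a covariate and, chosen after the data were seen, 130 and 124 with only libraries 3 and 4. The last keeps 2 libraries per group; the cause of the other shifts was not tested. Leaving out 1 of the 16 libraries gave 161 to 315 higher and 143 to 281 lower. The counts were 161 and 146 without control 2 and 181 and 143 without oxLDL 1, and 156 lower without oxLDL 2. Over the 6 settings of normalization, filtering, tool and libraries in the fit, the counts were 239 to 361 higher and 229 to 302 lower. They were 270 and 229 without acinar markers, and 204 and 224 without combination 2 and controls 1 and 2, a setting also chosen after the data were seen. With the replicate number as a block, 398 were higher and 336 lower. Not every library correlated best with its own number, and whether the numbers mark a batch was not tested. The number of genes also called beside tirzepatide, 98, was 42 to 183 with 1 library left out: 183 without combination 2, 48, 58 and 42 without combination 1, 3 or 4. The number of genes with a differing response, 8, was 25 with the replicate block, 43 by DESeq2, 5 without controls 1 and 2 (4 of them among the 8) and 1 to 14 with 1 library left out. Of 129 called genes named in the text, 78 were called in all 28 settings, 101 without controls 1 and 2, and 96 with each of the 8 libraries left out. The other 33, which reached an edgeR adjusted p of up to 0.191 without 1 library, were Atp6ap1, Atp6v0a1, Bhlhe40, Bmal1, C5ar1, Ccl9, Cd93, Cmpk2, Colec12, Csf1, Ctrb1, Dbp, Egr2, Gclc, Gclm, H2-D1, Hadha, Hpgds, Hsp90aa1, Il15, Isg15, Itgal, Itgam, Lamp2, Ltb, Mt1, Pdgfb, Slc39a10, Srebf1, Srebf2, Tfrc, Tlr7 and Tnfrsf11a. No called gene named in the text changed sign in any setting. Of uncalled genes, the log2 change of Fth1 turned positive in 5 settings, at 0.0342 with quantile normalization, 0.0861 without controls 1 and 2 and 0.0862 without those and combination 2, and ran from -0.2651 without control 4 through 0.0025 without control 2 to 0.0523 without control 3. That of Il1rn ran from -0.1114 without oxLDL 3 to 0.2152 without oxLDL 4. In simulated data of this depth, with genes drawn independently of each other, 41.8% of 1.2-fold changes were recovered. A small change that was not called may therefore have gone undetected at this depth.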

Other observations

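Some genes with clear changes belong to no list above and were picked after their values were seen. Il11, a cytokine of the IL-6 family, had 4.76, 3.69, 5.28 and 4.44 TPM with oxLDL, against 0.736, 0.304, 0.389 and 0.691 TPM in controls (log2 change 2.99, SE 0.43, edgeR adjusted p = 8.61e-05). The groups did not overlap, and in cells given tirzepatide oxLDL raised it by 2.14 (SE 0.43, edgeR adjusted p = 0.00803). Smox, which oxidises the polyamine spermine, had 37.4, 40.9, 43.9 and 37.4 TPM with oxLDL, against 23.4, 22.3, 28.1 and 25.1 TPM in controls (0.69, SE 0.098, edgeR adjusted p = 8.61e-05), beside the rise of Odc1 given above. It was also called beside tirzepatide (0.42, edgeR adjusted p = 0.0233).

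Of 14 genes over 2-fold higher, several were near the detection limit. Cd93, a myeloid and endothelial surface receptor, had 0.623, 0.720, 0.481 and 0.466 TPM with oxLDL and 0.125, 0.124, 0.0180 and 0 TPM in controls, and Eml1, a microtubule-binding protein, 0.433, 0.403, 0.767 and 0.894 TPM with oxLDL and 0, 0.226, 0.0470 and 0 TPM in controls. Both were called (edgeR adjusted p = 0.0125 and 0.00735), although some control libraries are listed at 0. Bmal1, an activator of the circadian clock, had 35.1, 37.04, 35.02 and 37.2 TPM with oxLDL, against 38.5, 41.1, 43.8 and 48.8 TPM in controls. Its groups did not overlap (-0.26, SE 0.069, edgeR adjusted p = 0.0246). Dbp, a target of that clock, had 5.53, 6.13, 7.65 and 5.92 TPM with oxLDL and 6.25, 13.8, 12.5 and 9.37 TPM in controls (-0.70, SE 0.19, edgeR adjusted p = 0.0282), and control 1 lay inside the oxLDL range. Bmal1 and Dbp were each called in only 3 of 8 fits with 1 library left out. Neither was called beside tirzepatide (edgeR adjusted p = 0.302 and 0.738).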
